A study of Mus musculus with 9 samples.

Results

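Tigit, Lag3 and 6 further surface genes were read in mouse regulatory T (Treg) cells with and without the Hippo pathway kinases Mst1 and Mst2. The 8 genes were Tigit, Cd226, Cd96, Lag3, Havcr2, Klrg1, Cd160 and Cd200, chosen by exact gene symbol. Each had 1 probe set, so 8 of the 23521 probe sets with 1 symbol, and 8 of the 22180 genes these stand for, are described here. Most encode inhibitory receptors, but Cd226 encodes a costimulatory receptor and Cd200 the ligand of an inhibitory receptor.

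The study has 9 samples of Treg cells on a C57BL/6 background, 5 wild-type and 4 Mst1/Mst2-null, with 1 Affymetrix whole-transcript array each. Wild-type cells came from Foxp3YFP-Cre marrow and null cells from Foxp3YFP-CreStk4f/fStk3f/f marrow, where Stk4 encodes Mst1 and Stk3 encodes Mst2. Both groups therefore carry the YFP-Cre at Foxp3, which limits deletion to cells that have expressed Foxp3. Either marrow was mixed in equal parts with wild-type CD45.1 marrow and given to RAG1-/- recipients, which lack T and B cells of their own, and 2 months later the YFP+ CD4+ cells of CD45.2+CD45.1- origin were taken by sorting. Nothing in the labels says whether each sample had its own chimera. The tests therefore speak only of the spread among the 9 samples, which may be technical.

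Inhibitory receptors restrain T cells through tyrosine motifs in their tails, which recruit phosphatases, or through other tail sequences. TIGIT, CD96 and CD226 form a small family that competes for shared nectin-like ligands, above all CD155 (gene Pvr): CD226 delivers an activating signal, and TIGIT an inhibitory one. On Treg cells TIGIT, LAG3 and KLRG1 are known as markers of activated or effector cells, and TIGIT and LAG3 take part in suppression. The comparison asks which of these transcripts depend on Mst1 and Mst2 in a study of interleukin-2 receptor and STAT5 signalling.

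Values are log2 values from RMA, which corrects background, equalises the arrays' distributions and joins the probes of a probe set. Every difference is null minus wild-type and was tested by limma across all genes, with a threshold of 0.05 on the Benjamini-Hochberg adjusted p. Levels of different probe sets are not compared, because probes differ in brightness. A probe set below 4.05, the median over all 41345 probe sets, is not shown to exceed background.

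Of the 8 genes, 1 passed the test, Tigit, which fell, where 2.32% of all genes passed in either direction and 1.89% passed as lower. Null means were lower for 7 of the 8 genes and higher for Cd226, while 49.3% of all genes were lower. The 7 include Havcr2 (-0.012), with every sample below 4.05, and Cd96 (-0.038). Each of these changed sign when 1 sample was left out, so no direction is read from them. The median difference of the 8 was -0.31, against 0.0023 over all genes. Groups did not overlap for Tigit and Lag3, where 6.16% of all genes had groups without overlap (4.4% with null samples lower). An unadjusted p under 0.05 was reached by 6 of the 8, against 14.9% of all genes.

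**Figure D1:**
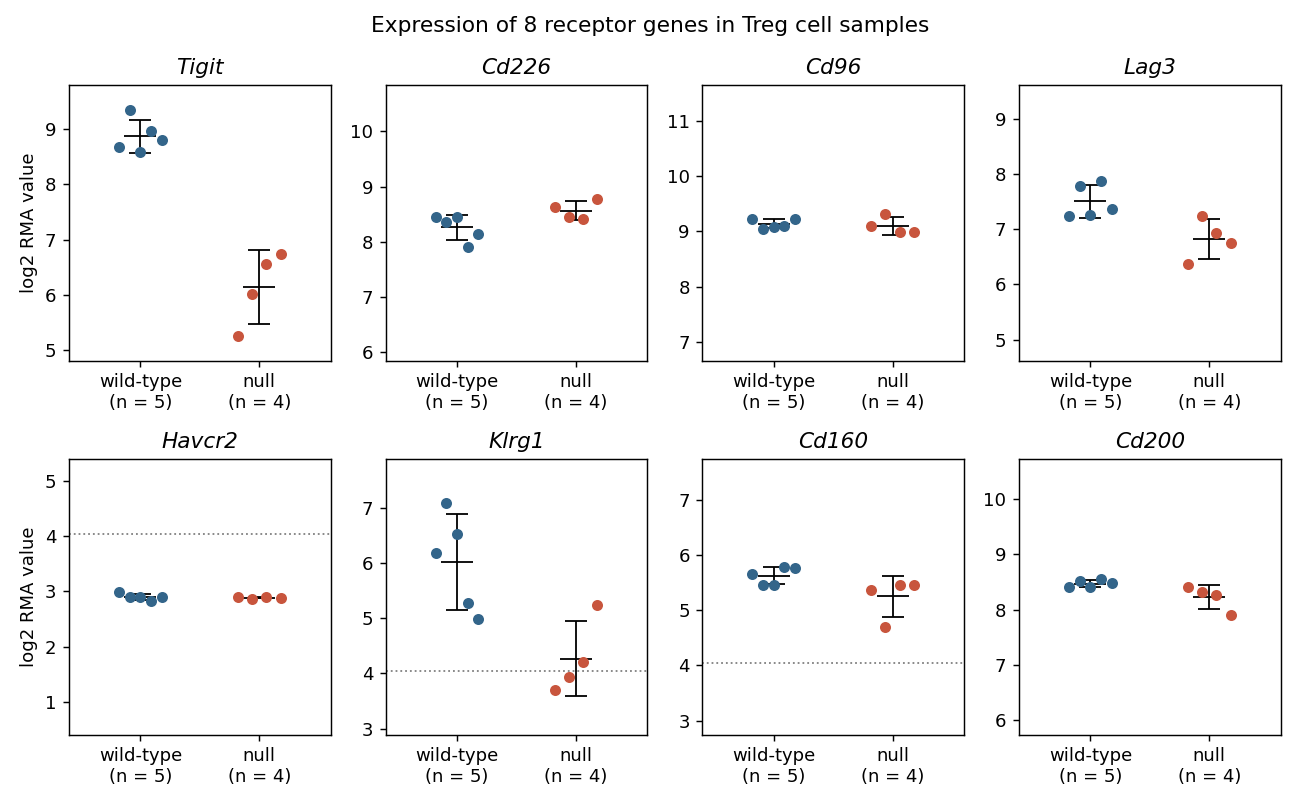
Log2 RMA value (vertical axis, a span of equal length in each panel) of the 8 receptor genes in wild-type (blue, n = 5) and null (red, n = 4) samples; points are samples, bars are mean ± SD, and the dotted line is the median of all probe sets, 4.05. The 4 null samples lie below the 5 wild-type samples for Tigit, and by a narrow margin for Lag3.

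Tigit, the inhibitory receptor for CD155, was 8.67, 9.35, 8.58, 8.96 and 8.80 in wild-type samples 1 to 5 and 5.26, 6.01, 6.56 and 6.74 in null samples 1 to 4. The highest null value lay 1.84 below the lowest wild-type value, and null values were spread over 1.49, against 0.76 in wild type. The means were 8.87 ± 0.30 (SD, n = 5) and 6.14 ± 0.67 (SD, n = 4). The difference of -2.73 ± 0.28 (SE), with a 95% interval from -3.35 to -2.12, is a 6.65-fold lower level (limma adjusted p = 0.00102), and ranked number 30 of all genes by p. No null sample fell below 4.05. In bulk samples like these, fewer Tigit-expressing cells and less Tigit RNA per cell cannot be told apart.

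Cd226, the activating competitor of TIGIT, was 8.45, 8.35, 8.45, 7.91 and 8.14 in wild-type samples 1 to 5 and 8.62, 8.45, 8.41 and 8.78 in null samples 1 to 4. Each null value was above the wild-type mean, but only null samples 1 and 4 exceeded the wild-type maximum, so the groups overlapped. The difference of 0.30 ± 0.12 (SE; 95% interval from 0.027 to 0.58) did not pass (limma adjusted p = 0.28). As for the intervals of Lag3, Klrg1, Cd160 and Cd200, this interval is not adjusted for the number of genes and leaves out 0 although the adjusted test was missed.

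Cd96, which encodes the further CD155 receptor of the family, was 9.23, 9.05, 9.09, 9.11 and 9.23 in wild-type samples 1 to 5 and 9.11, 9.32, 8.99 and 8.99 in null samples 1 to 4. The samples of both groups were interleaved. The difference was -0.038 (limma adjusted p = 0.885), and its 95% interval, from -0.22 to 0.15, does not reach a change the size of that in Tigit.

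Whether the 3 receptors changed by different amounts was tested on the within-sample difference of 2 log2 values. Only the shift of such a difference between groups carries meaning, not its level. Tigit less Cd226 shifted by -3.04 between groups and Tigit less Cd96 by -2.70, each without overlap. Both gave an exact two-sided permutation p of 0.0159 (adjusted over the 3 pairs, 0.0238), the smallest that 5 against 4 samples allow. Cd226 less Cd96 shifted by 0.34, which did not pass (exact permutation p = 0.111, adjusted p = 0.111), although without null sample 2 it was 0.45 (exact permutation adjusted p = 0.0357). Without null sample 1, 3 or 4 the shifts of both Tigit pairs stayed between -3.23 and -2.40, but the exact permutation adjusted p was 0.0536. The unadjusted p of 0.0357 was then the smallest that 5 against 3 samples allow.

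**Figure D2:**
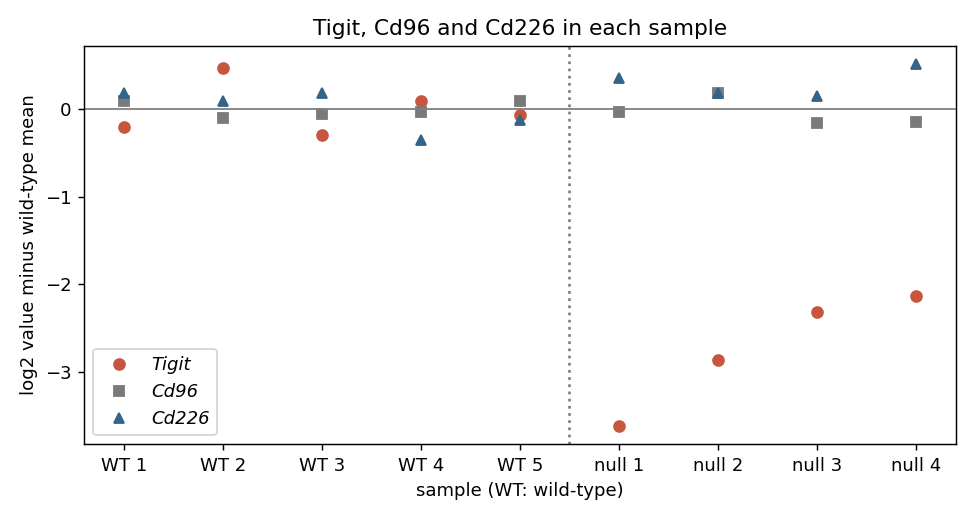
Log2 value of Tigit (circles), Cd96 (squares) and Cd226 (triangles) in each sample (horizontal axis), after subtracting the gene's wild-type mean. In the 4 null samples Tigit lies far below 0, Cd96 near 0, and Cd226 above 0.

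RefSeq's promoter table (build GRCm38.p6) gave windows for 5 of the 8 genes, and no window of the others was used here. The 250 bases before the start site are printed for Tigit, the gene that fell, and for Cd96, the family member on the same chromosome whose difference was near 0. Both are on the minus strand, at chr16:43664185-43664434 for Tigit and chr16:46120249-46120498 for Cd96, and are written 5′ to 3′ along the gene. Capitals mark matches, on either strand, to any of 4 motifs: TTCNNNGAA (STAT), TGANTCA (AP-1), TGTGGT (RUNX) and TGTTTAC (forkhead).
Tigit: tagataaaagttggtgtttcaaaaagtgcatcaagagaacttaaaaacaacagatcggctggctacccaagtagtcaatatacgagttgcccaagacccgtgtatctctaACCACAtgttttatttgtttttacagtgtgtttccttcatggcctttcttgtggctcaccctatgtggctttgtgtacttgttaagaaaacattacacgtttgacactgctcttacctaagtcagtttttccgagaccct
Cd96: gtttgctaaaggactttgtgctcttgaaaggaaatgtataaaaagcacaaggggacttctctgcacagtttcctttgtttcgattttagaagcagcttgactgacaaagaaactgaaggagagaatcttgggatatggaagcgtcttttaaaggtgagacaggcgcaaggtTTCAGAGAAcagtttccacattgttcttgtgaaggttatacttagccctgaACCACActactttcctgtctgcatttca

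The Tigit window held 1 match, the RUNX letters read on the opposite strand, and no STAT match. Cd96 held 1 STAT match and 1 RUNX match. Of 32851 windows of this length, 7.02% held the STAT letters, 14.05% the RUNX, 6.75% the AP-1 and 3.17% the forkhead letters. The STAT and RUNX matches did not overlap, and these letters are a description of 1 short window per gene, not of binding.

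Lag3, which encodes a receptor for MHC class II molecules, was 7.24, 7.78, 7.27, 7.87 and 7.37 in wild-type samples 1 to 5 and 6.36, 7.23, 6.94 and 6.75 in null samples 1 to 4. The groups did not overlap, but null sample 2 lay only 0.0072 below wild-type sample 1. Means were 7.51 ± 0.30 (SD, n = 5) and 6.82 ± 0.36 (SD, n = 4). The difference of -0.69 ± 0.19 (SE; 95% interval from -1.10 to -0.27), or 1.61-fold, did not pass over all genes (limma adjusted p = 0.101).

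Klrg1, a C-type lectin receptor for cadherins, was 6.18, 7.09, 6.53, 5.28 and 4.99 in wild-type samples 1 to 5 and 3.70, 3.93, 4.20 and 5.25 in null samples 1 to 4. It varied more within groups than any other of the 8 genes, with an SD of 0.87 in wild type and 0.68 in null samples. Null sample 4 lay within the wild-type range, and null samples 1 and 2 were below 4.05, which leaves the size of the difference inexact. The difference was -1.74 ± 0.44 (SE; 95% interval from -2.72 to -0.76) and did not pass (limma adjusted p = 0.0779). It passed without null sample 4 (difference -2.07, limma adjusted p = 0.0418) and after a filter on dim genes (limma adjusted p = 0.0448).

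Havcr2, which encodes TIM-3, was 2.98, 2.89, 2.89, 2.83 and 2.89 in wild-type samples 1 to 5 and 2.89, 2.87, 2.89 and 2.89 in null samples 1 to 4. All 9 values lay below 4.05, so neither its level nor a change can be read from these arrays (difference -0.012, limma adjusted p = 0.947).

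Cd160, whose product binds the herpesvirus entry mediator Tnfrsf14, was 5.65, 5.46, 5.46, 5.79 and 5.76 in wild-type samples 1 to 5 and 5.37, 4.70, 5.46 and 5.46 in null samples 1 to 4. Null sample 2 stood apart on the low side. The groups met at the identical value, shared by wild-type samples 2 and 3 and null samples 3 and 4. The difference of -0.37 ± 0.16 (SE) did not pass (limma adjusted p = 0.286), and without null sample 2 it was -0.19.

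Cd200, which encodes the ligand of the inhibitory receptor Cd200r1, was 8.40, 8.51, 8.40, 8.56 and 8.48 in wild-type samples 1 to 5 and 8.40, 8.33, 8.27 and 7.91 in null samples 1 to 4. Of the null samples, 3 lay below the wild-type minimum and sample 1 equalled it. The difference of -0.25 ± 0.098 (SE), or 1.19-fold, did not pass (limma adjusted p = 0.264), and without null sample 4 it was -0.14 (limma adjusted p = 0.365).

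Values identical to the last deposited digit between samples occurred in 5 of the 8 genes (Cd226, Cd96, Havcr2, Cd160 and Cd200) and in 56.6% of all genes. In Havcr2 they took in 5 of the 9 samples and in Cd160 4.

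**Figure D3:**
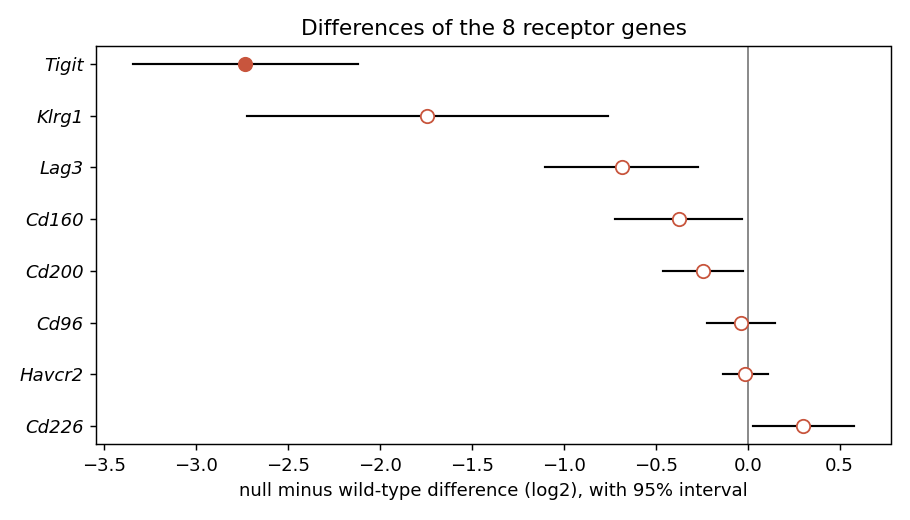
Null minus wild-type difference (horizontal axis, log2) of the 8 receptor genes with its unadjusted 95% interval from limma. Only the filled point, Tigit, passed the adjusted threshold, and Cd226 is the gene with a positive difference.

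**Figure D4:**
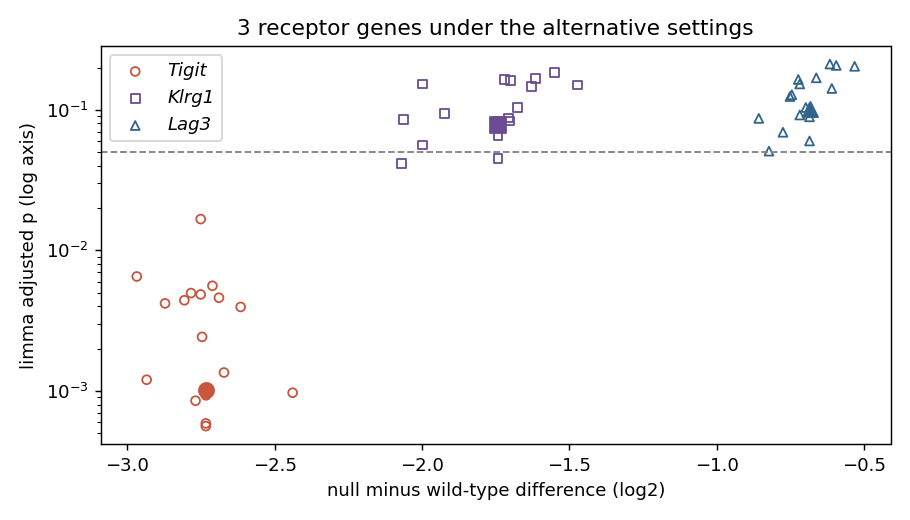
Difference (horizontal axis, log2) against limma adjusted p (vertical axis, log scale) for Tigit, Klrg1 and Lag3 as reported (large filled symbols) and under 19 alternative settings (open symbols), with the threshold of 0.05 dashed. Tigit lies between 0.00056 and 0.0167, Lag3 at or above 0.0509, and Klrg1 crosses the line in 2 settings.

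Genes with a pattern over the samples like that of each receptor were sought among 10475 genes with a mean above 4.05, by the correlation of log2 values over 9 samples. These samples share the difference between groups, so the correlation after removing group means is given beside it. Tigit was followed most closely by Il1r2, the interleukin-1 decoy receptor (r = 0.991, and 0.917 within groups), the receptor kinase gene Axl (0.989 and 0.931) and the calcium pump gene Atp2b4 (0.986 and 0.842), which all fell. For Lag3 the closest was Pdcd1, which encodes PD-1 (0.981 and 0.955), before Sostdc1 (0.975 and 0.940) and Arl1 (0.963 and 0.912). For Klrg1 they were Irf2bp2 (0.978 and 0.943), Unc119 (0.962 and 0.923) and Pdia6 (0.958 and 0.895), of which Unc119 fell (difference -0.58, limma adjusted p = 0.0264).

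The remaining receptors had smaller differences, and none of the genes closest to them passed the test. They were Stap1, Rif1 and Mrps24 for Cd226 (r from 0.937 to 0.942), Snrpd1, Psma2 and Hpf1 for Cd96 (0.942 to 0.955), and Lmbrd1, Wrn and Nfatc3 for Cd200 (0.960 to 0.980). Those of Cd160 were Pex6, Tmprss6 and Il16 (0.970 to 0.988) and those of Havcr2 Med6, Ap5s1 and Mettl17 (0.919 to 0.983). With 9 samples and 10475 genes to choose from, correlations of this size are a description of these samples.

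Among up to 5 nearest measured genes on either side in gene order (assembly GRCm38.p6, used for order only), Tigit, Cd226, Cd96, Havcr2 and Cd160 had no gene that passed. Those that passed numbered 1 of 10 for Lag3, 2 of 10 for Klrg1 and 1 of 10 for Cd200. Over all genes, 2.32% passed. Pianp, near Lag3, fell from 5.62 ± 0.23 (SD, n = 5) to 4.56 ± 0.19 (SD, n = 4; limma adjusted p = 0.00292). Near Klrg1, M6pr, which encodes a mannose phosphate receptor, fell 1.58-fold (limma adjusted p = 0.0275). The predicted gene Gm6637, next to Klrg1, fell from 7.88 ± 0.43 (SD, n = 5) to 3.75 ± 1.53 (SD, n = 4; limma adjusted p = 0.00671), a null mean below 4.05. Cd200 had Btla nearby, described with the other inhibitory receptors. These neighbours were named after their values were seen, and the part of gene position in the differences of Klrg1 and Lag3 was not tested.

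Ligands and counter-receptors of the 8 proteins passed the limma test in 0 of 18 measured cases (median difference 0.0068, range -0.49 to 0.54), where 2.32% of all genes passed. They included Pvr (difference 0.24, limma adjusted p = 0.387) and 4 nectin genes. At the top of the list by p stood Cd200r1, the receptor for CD200, whose means were 6.35 ± 0.31 (SD, n = 5) and 5.86 ± 0.27 (SD, n = 4; limma adjusted p = 0.194), and the galectin gene Lgals3 (difference -0.18, limma adjusted p = 0.344). Of the 18, 5 had means below 4.05, among them Nectin3 and Fgl1. At an unadjusted p under 0.05 there was 1 of the 18, Cd200r1.

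Of 13 measured adaptors, phosphatases and related partners, 3 fell and 0 rose (median difference -0.083), where 1.89% of all genes fell and 0.428% rose. At an unadjusted limma p under 0.05 there were 6 of the 13, of which Prkcq was higher in null samples, against 14.9% of all genes. Sh2d1a, which encodes the adaptor SAP, fell 1.79-fold (limma adjusted p = 0.000941), from a mean of 7.89 ± 0.14 (SD, n = 5) to one of 7.05 ± 0.091 (SD, n = 4). Itgal, an integrin chain of LFA-1, fell 1.31-fold and Inpp5d, which encodes the lipid phosphatase SHIP-1 recruited by TIGIT, 1.21-fold (limma adjusted p = 0.0158 and 0.0487), the latter no longer past the threshold after median centring (0.0657) or quantile normalisation (0.203). The protein phosphatase gene Ptpn6, which encodes SHP-1, had a difference of -0.011, and Bag6, a partner of the TIM-3 tail, one of -0.026, neither past the test. Ptpn11 (-0.38, limma adjusted p = 0.109) and Dok1 (-0.43, limma adjusted p = 0.264) had larger differences and did not pass.

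Of 18 transcription factors linked to inhibitory receptor genes, 5 fell and 0 rose, with a median difference of -0.43. At an unadjusted limma p under 0.05 there were 14 of the 18, against 14.9% of all genes. Of these, Nr4a1 was higher in null samples and the rest lower. Batf, an AP-1 family factor of effector Treg cells, fell 2.25-fold (limma adjusted p = 0.00627), from a mean of 8.59 ± 0.26 (SD, n = 5) to one of 7.42 ± 0.31 (SD, n = 4). Nfil3 fell 2.08-fold, Tox2 1.80-fold, Tox 1.39-fold and Ikzf2, which encodes Helios, 1.65-fold (limma adjusted p from 0.0166 to 0.0357); after quantile normalisation Tox2 missed the threshold (0.0581). Maf and Prdm1, which encode factors that induce inhibitory receptors in T cells, did not pass (differences -1.31 and -0.71, limma adjusted p = 0.0779 and 0.122). Their groups did not overlap, nor did those of Stat5b or of the 5 genes that passed. Over all genes, 4.4% had null samples lower without overlap. The genes for STAT5, Stat5a (0.061) and Stat5b (-0.25), did not pass either. Eomes (0.21), Nr4a1 (0.25) and Nr4a3 (0.046) were, like Stat5a, higher in null samples, none past the test. The mean of Eomes, 3.71, lay below 4.05, so its difference is not shown to exceed background. The background for lower calls is 1.89% of genes.

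Other inhibitory receptors moved in both directions: of 15 measured, 2 fell and 1 rose (median difference 0.079), where 1.89% of all genes fell and 0.428% rose. At an unadjusted limma p under 0.05 there were 8 of the 15, against 14.9% of all genes. Of these, Btla, Lair1, Pecam1 and Cd300a (mean below 4.05) were higher in null samples and the rest lower. Btla, an inhibitory receptor that shares the ligand Tnfrsf14 with CD160, rose 1.43-fold without overlap (limma adjusted p = 0.0166), from a mean of 6.68 ± 0.14 (SD, n = 5) to one of 7.19 ± 0.12 (SD, n = 4). Lilrb4a, a receptor with inhibitory tail motifs, fell from 8.43 ± 0.69 (SD, n = 5) to 5.67 ± 1.49 (SD, n = 4; limma adjusted p = 0.0487, and 0.0576 after quantile normalisation). Its null values of 4.72, 4.45, 5.80 and 7.72 were wide apart, sample 4 overlapped wild type, and it has a near-identical relative to which probes can bind. Entpd1, the ectoenzyme CD39, which is no receptor but was on the list, fell 1.83-fold (limma adjusted p = 0.00759). Pdcd1, the closest pattern to Lag3, was 7.55 in wild type and 6.51 in null samples on average (limma adjusted p = 0.0748), and Ctla4 differed by -0.088 (limma adjusted p = 0.77).

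**Figure D5:**
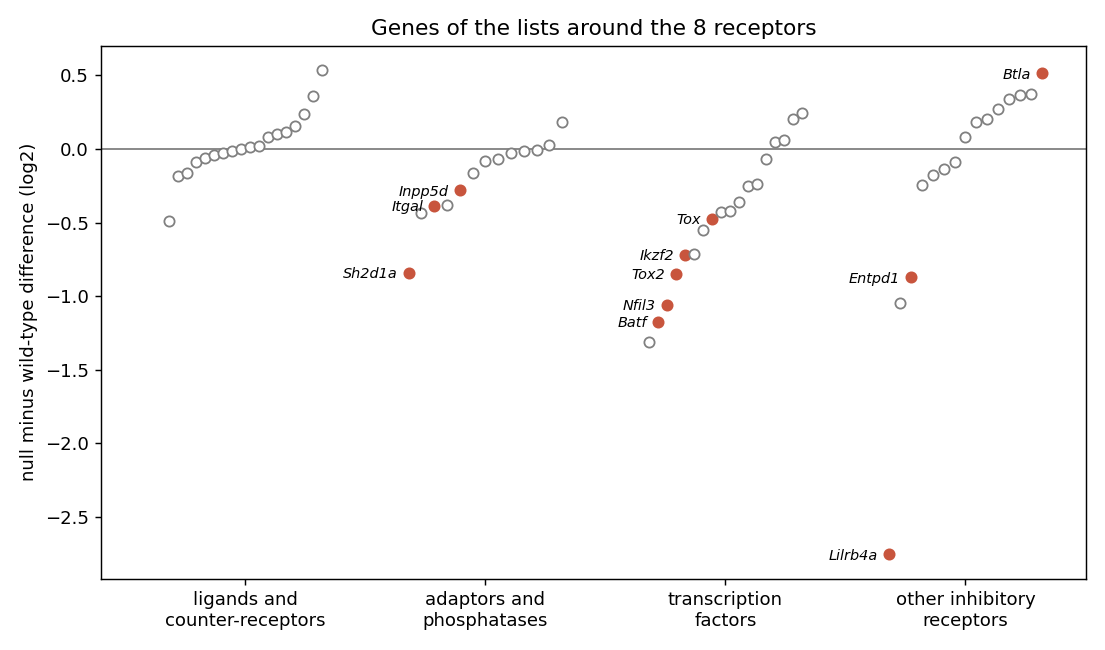
Null minus wild-type difference (vertical axis, log2) of each measured gene in the 4 lists around the receptors, sorted within a list; filled points passed the limma test and are named. The filled points lie below 0 except Btla, and no ligand gene passed.

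Identity genes were read to check the labelled cell type. Foxp3 means were 10.70 ± 0.049 (SD, n = 5) and 10.72 ± 0.092 (SD, n = 4), in the order wild-type and null. Of the 8 identity genes, all with means above 4.05, Ikzf2 was the only one to pass, and Cd3e, Cd3d, Cd4, Il2ra, Ctla4 and Ptprc did not. At an unadjusted limma p under 0.05 there were 4 of the 8, against 14.9% of all genes: Cd3e, Cd3d, Cd4 and Ikzf2, all lower in null samples. The list mean was 10.19 to 10.28 in wild-type and 9.96 to 10.09 in null samples, without overlap. Foxp3 and Il2ra had differences of 0.014 and 0.056. Stk4 was 7.91 and 7.64 on average (limma adjusted p = 0.146), without overlap, where 4.4% of all genes had null samples lower without overlap. The labels do not say which exons are deleted, and the array is a whole-transcript one, so Stk4 does not check the deletion. No probe set was named Stk3. Several of the 8 receptors are also genes of NK cells. Of 11 measured NK cell markers, 8 had means below 4.05, among them Ncr1, Klrb1c and Klrk1, and the mean of the list was 3.51 to 3.78 in wild-type and 3.61 to 3.86 in null samples. No NK marker passed (Tyrobp, also of myeloid cells, had a difference of 0.74, limma adjusted p = 0.184). Klrd1 had a difference of 0.52, but 8 of its 9 samples lay below 4.05.

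B cell markers, read because CD200 is also on B cells, passed in 0 of 9 cases (list mean 4.33 to 4.99 in wild-type and 4.56 to 5.25 in null samples), with Cd79a and Vpreb3 at differences of 0.61 and 0.20. All their differences were positive (from 0.015 to 0.61, median 0.21), where the median over all genes was 0.0023. Myeloid and dendritic cell markers passed in 0 of 12 cases (list mean 4.35 to 4.56 and 4.45 to 4.89), with Siglech and Fcer1g at 0.38 and 0.41. Every difference of that list but the one of Cst3 (-0.23) was positive (median 0.20). At an unadjusted p under 0.05, limma gave 2 of the 11 NK, 2 of the 9 B cell, 3 of the 12 myeloid and 4 of the 7 CD8 T cell markers, against 14.9% of all genes. Of the 7 CD8 T cell markers, 2 fell and 0 rose (median difference -0.19), where 1.89% of all genes fell and 0.428% rose. The list mean was 5.82 to 6.01 in wild-type and 5.22 to 5.68 in null samples. Cxcr3 fell 3.08-fold and Nkg7 2.23-fold (limma adjusted p = 0.00475 and 0.01). The CD8 chain genes Cd8b1 and Cd8a had differences of 0.55 and 0.12, and the granzyme gene Gzmb one of -1.04, none past the test (limma adjusted p = 0.133, 0.758 and 0.166). The part of other cell types in the differences of the receptors was not tested.

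Over all genes, 515 passed, 420 lower and 95 higher, so 18.4% of calls were higher, and 35.7% after quantile normalisation of the gene values. The heat shock genes Hspa1a and Hspa1b were low (2.80 to 6.70) in wild-type samples 1 and 2 and null sample 1 and between 8.11 and 10.48 in the other 6. With their level as a covariate, the difference of Tigit was -2.75 (limma adjusted p = 0.00242).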

How the data were processed

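The deposited values are log2 expression values, 1 per probe set and array. Per the submitters' processing notes, the authors used RMA and Affymetrix Expression Console 1.1. The sources used here do not give the build behind the probes. Gene symbols came from the platform annotation: 23521 probe sets had 1 symbol, 1814 several and 16010 none, and only the first were named. For 1082 genes with several probe sets the one with the highest mean stood for the gene. Each of the 8 receptors had 1 probe set.

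Groups were compared by limma 3.58.1 in R 4.3.3 (lmFit and eBayes, two-sided, Benjamini-Hochberg over 22180 genes, no filter), tested on simulated data. Exact permutation tests used scipy 1.17.1, with Python 3.11.15. The alternatives were a replicate block, removal of dim genes, 2 other ways of joining probe sets, 2 other scalings, other limma settings, the heat shock genes as a covariate, and leaving out samples. Named are the 8 genes, up to 6 passing genes of a list (or the top 2 by p), the 3 most similar genes per receptor and check genes. Further genes of the lists, among them Maf, Prdm1, Ptpn6, Ctla4 and Cd8b1, were named outside this rule. Members, lists and tests were chosen with earlier results of these data known. A few genes of the lists, Lck, Cd72 and Klra8 among them, were not analysed here. With arrays, the number of samples limits the precision.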

Additional observations from a re-analysis of the deposited data

Results flagged for a closer look

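Within-group spread was checked in 72 groups of values (36 genes or pairs of genes, 5 wild-type or 4 null samples each), and 4 had a sample far from the rest by Dixon's test at the 95% level, which chance gives in about 1 group in 20. Cd160 was 4.70 in null sample 2, where the other null samples lay between 5.37 and 5.46. Stk4 was 8.09 in wild-type sample 3, against 7.84 to 7.88 in the others. Nkg7 was 7.66 in wild-type sample 3, against 8.16 to 8.31. Cd79a was 5.97 in wild-type sample 1, against 5.09 to 5.24.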

How the results depend on the processing

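Tigit fell under each of 19 alternatives (differences from -2.97 to -2.44, limma adjusted p from 0.00056 to 0.0167). With 1 probe set per receptor, the 2 other ways of joining probe sets could not change its difference of -2.73. Nor could the filter on dim genes or limma's trend and robust options, which act only on its p. Lag3 missed the threshold under each of the 19 (limma adjusted p from 0.0509 to 0.212), as did Cd226, Cd160 and Cd200 (0.179 or above), with their direction kept. With the filter on dim genes, which removed Havcr2, 2 of the receptors passed, as Klrg1 reached an adjusted p of 0.0448 (difference -1.74). Leaving out 1 sample at a time gave 1 or 2 receptors past the threshold, Klrg1 differences from -2.07 to -1.47, and 271 to 594 genes over all. Differences near 0 changed sign without 1 sample: Havcr2 ranged from -0.030 to 0.0086 and Cd96 from -0.11 to 0.00063. Leaving out 1 sample, Tigit less Cd226 ranged from -3.23 to -2.72, Tigit less Cd96 from -2.93 to -2.40 and Cd226 less Cd96 from 0.23 to 0.45. Without null samples 2 and 4 the pairs with Tigit shifted by -3.22 and -2.87, with an exact permutation p of 0.0952, the smallest that design allows. Adding the replicate block left 178 genes past the threshold, Tigit among them (adjusted p = 0.0167). Same-numbered samples did not deviate together (correlations from -0.11 to 0.042), so the numbers were not taken as pairs. Arrays give no depth, and dim signal limits Havcr2 and Klrg1.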
